A study of Mus musculus with 10 samples.

Results

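*Ubb* and *Rps27a* are 2 of the genes of the mouse that encode ubiquitin. They were chosen by name from the 54532 genes of the count files because *Ubb* was lower in neuronal nuclei without *Morc2a*, so that their values in that knockout are a description here and carry no test. Further ubiquitin genes of the mouse are not analysed here. Both genes passed the filter on low counts that left 18573 genes for testing.

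Ubiquitin is a small protein that is joined to lysines of other proteins by a relay of activating (E1), conjugating (E2) and ligating (E3) enzymes. Chains of it send proteins to the proteasome, and deubiquitinases take it off again and return it to the free pool. No gene makes free ubiquitin directly. *Ubb* is translated as a head-to-tail chain of ubiquitins and belongs to the genes that heat and other proteotoxic stress induce, whereas *Rps27a* joins a single ubiquitin to a protein of the small (40S) ribosomal subunit. In the brain, *Ubb* is known to be needed for the ubiquitin supply of neurons.

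RNA was sequenced from NeuN+ nuclei, the nuclei of neurons, sorted from brains of adult C57BL/6J mice. All 10 libraries came from mice homozygous for floxed alleles. Of the 5 controls, which carry no *Nestin*-Cre, replicates 1 to 3 are *Mphosph8*fl/fl and replicates 4 and 5 are *Morc2a*fl/fl. The 3 libraries of the *Mphosph8* knockout (*Mphosph8*Δ/Δn) and the 2 of the *Morc2a* knockout (*Morc2a*Δ/Δn) carry these alleles with *Nestin*-Cre, which deletes from neural progenitors onward and hence also in cells that are not neurons, and no library carries Cre without floxed alleles. MPP8, the product of *Mphosph8*, is a subunit of the HUSH silencing complex, and MORC2A is an ATPase that works with it. The labels do not say which libraries come from separate mice or litters. The study describes its replicates as biological and the mice of this experiment as adult littermates. Litters do not enter the tests, and the p-values measure the spread between these libraries. In nuclei of a tissue, fewer cells of a type and less RNA per cell cannot be told apart.

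The deposited values are read counts for each gene, with totals of 6686038 to 10764555 per library, and CPM scale the counts to the library total after TMM normalization. Counts of the targeted genes pool all exons, of which 1 is deleted, and are not a direct check of the deletion. Its removal is designed to put the mRNA out of frame and so expose it to decay, and the study checked the loss by qRT-PCR and immunoblots, which are not analysed here. *Mphosph8* was at 18.8, 36.0 and 37.2 CPM in the *Mphosph8* knockout libraries against 32.2 to 49.0 CPM in controls (adjusted p = 0.967, edgeR's quasi-likelihood test). *Morc2a* was at 215 and 223 CPM in the libraries labelled *Morc2a* knockout against 122 to 163 CPM in controls (log2 difference 0.64, adjusted p = 0.0916 by the same test). These counts establish the loss in neither knockout, so the directions given for both rest on the labels. *Rbfox3*, which encodes the NeuN antigen, was at 150 to 274 CPM in controls, 211 to 304 CPM in the *Mphosph8* knockout and 251 and 280 CPM in *Morc2a* knockout libraries.

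Both genes lie on chromosome 11 of GRCm38, the chromosome of *Morc2a*, at 58.9 Mb (*Ubb*) and 25.9 Mb (*Rps27a*) from it. *Ubb* (ENSMUSG00000019505, chr11:62551171-62553213, plus strand) holds its whole coding sequence in 1 exon. Of these 915 coding bases, 99.7% are 4 ubiquitin units of 228 bases, or 76 codons, in a row. *Rps27a* (ENSMUSG00000020460, chr11:29545846-29548109, minus strand) has 5 coding exons, with 1 ubiquitin unit followed by 80 codons of the ribosomal protein. The first unit of *Ubb* (chr11:62552146-62552373) and the unit of *Rps27a* (chr11:29546384-29547728 including introns) are shown to make visible how far the RNA of the same protein differs. Capitals mark the bases at which they differ from each other.
*Ubb* unit 1: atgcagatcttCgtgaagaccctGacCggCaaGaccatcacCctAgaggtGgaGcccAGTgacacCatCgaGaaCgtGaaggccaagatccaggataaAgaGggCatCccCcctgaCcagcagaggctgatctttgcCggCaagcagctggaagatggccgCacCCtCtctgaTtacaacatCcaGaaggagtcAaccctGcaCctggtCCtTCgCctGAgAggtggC
*Rps27a* unit: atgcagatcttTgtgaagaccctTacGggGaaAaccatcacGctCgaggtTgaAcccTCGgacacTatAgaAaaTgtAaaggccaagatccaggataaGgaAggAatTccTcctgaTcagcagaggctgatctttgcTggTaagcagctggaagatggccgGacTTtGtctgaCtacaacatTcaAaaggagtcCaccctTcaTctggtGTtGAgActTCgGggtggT
They differ at 44 bases in 38 codons (80.7% identity) and encode the same residues. Within *Ubb*, the 4 units are 95.6 to 99.1% identical to one another over 6 pairs and also encode the same residues.

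Reads had 50 bases, so each transcript was cut into all windows of that length and each window was looked for in the other annotated transcripts on either strand. Of 1450 windows of *Ubb*, 35.0% recur within the transcript and 61.0% are also in transcripts of other genes, which leaves 31.0% that occur once. *Rps27a* has no internal repeat, but 72.0% of its 742 windows, and 100% of those in its coding part, are in other genes too, and 28.0% occur once. How reads with several matches were counted is not given in the sources used here, so the level of each gene may miss reads from these stretches.

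**Figure D1:**
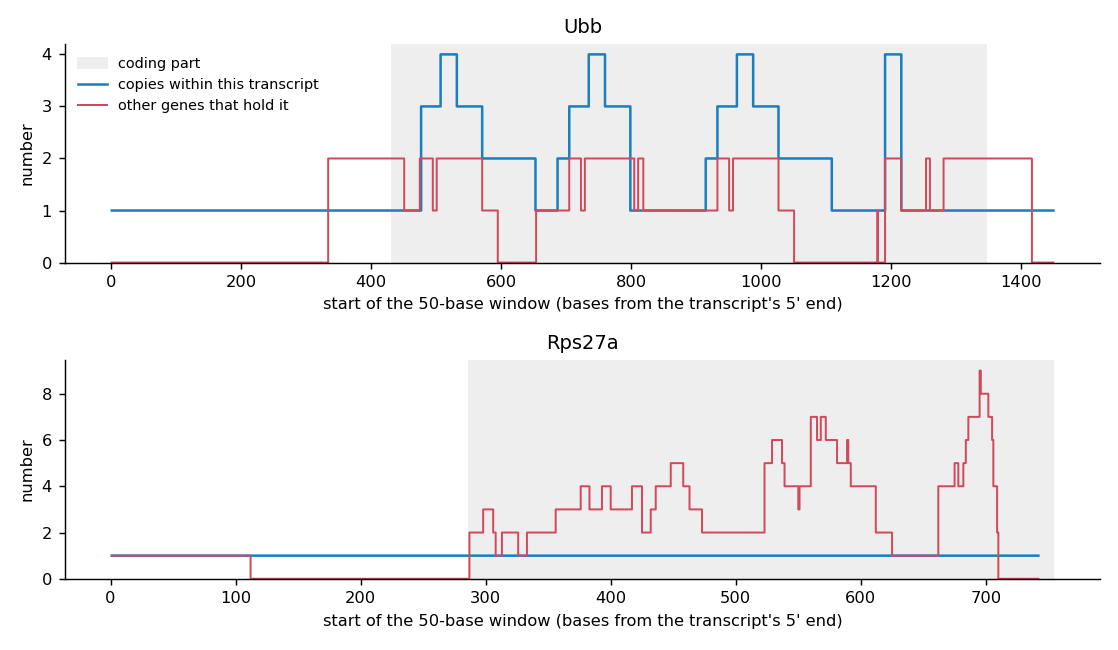
Exact matches of 50-base windows along the *Ubb* (upper) and *Rps27a* (lower) transcript. The x axis is the window's start in bases from the 5′ end, the y axis the number of copies within the transcript (blue) or of other genes that hold the window (red), and the grey area the coding part. The *Ubb* repeats reach 4 copies, and every coding window of *Rps27a* has at least 1 match elsewhere.

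The genes that share these windows held few reads. The 5 genes that share windows with *Ubb*, 4 of them pseudogenes, had 5 to 27 counts together per library, 0.298 to 1.17% of the *Ubb* count. The 15 genes that share windows with *Rps27a*, 14 of them pseudogenes, had 2 to 18 counts together, 1.51 to 8.42% of the *Rps27a* count. By group these were 3 to 7 counts in controls, 14 to 18 in the *Mphosph8* knockout, and 2 and 13 in the *Morc2a* knockout, a difference that was not tested. Of the named copies of *Rps27a*, *Rps27a-ps1* had 0 to 15 counts per library and *Rps27a-ps2* 0 or 1. The remaining gene, *Clhc1*, overlaps *Rps27a*, 8.11% of whose exonic bases it shares, and had 0 to 9 counts. These small counts do not bound the uncertainty of either gene, since reads with several matches may be missing from the copies as well.

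By the counted reads, *Ubb* was among the most abundant messages of these nuclei and *Rps27a* was not. In controls, the level of *Ubb* per length was 141 ± 25.4 CPM per kb and that of *Rps27a* 12.1 ± 2.61 CPM per kb (SD, n = 5). Among 18558 genes with a length, *Ubb* ranked at position 133 and *Rps27a* at 5132. Per exonic base, a control library held 8.33 to 19.4 times as much *Ubb* as *Rps27a*, and the *Ubb* level lay above the *Rps27a* level in 10 of 10 libraries. These levels divide by all annotated exonic bases of a gene, 1675 for *Ubb* and 1972 for *Rps27a*. With the lengths of the transcripts shown in the plot of windows, 1499 and 791 bases, a choice made after seeing the data, the ratio was 3.74 to 8.72 in controls, with a mean of 5.48 in place of 12.2. The ranks depend on the lengths used in the same way. Only 31.0% of the *Ubb* windows and 28.0% of the *Rps27a* windows occur once. Reads with several matches may be missing from either gene, so levels, ranks and ratios hold for the counted reads only.

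*Ubb* stood at 193, 295 and 196 CPM in controls 1 to 3, and at 242 and 253 CPM in controls 4 and 5. It stood at 206, 242 and 208 CPM in the *Mphosph8* knockout libraries. In both *Morc2a* knockout libraries *Ubb* was low, at 123 and 111 CPM, and neither was within the range of the controls or the *Mphosph8* knockout libraries. The group means were 236 ± 42.6 CPM in controls (SD, n = 5), 218 ± 20.1 CPM in the *Mphosph8* knockout (n = 3) and 117 ± 8.29 CPM in the *Morc2a* knockout (n = 2). In order of level, controls and the *Mphosph8* knockout did not differ beyond their spread, and the *Morc2a* knockout lay below both.

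After *Mphosph8* loss, no change of *Ubb* was detected. The log2 fold change was -0.11 (SE 0.14, 95% interval -0.41 to 0.19, adjusted p = 0.997 by the edgeR test over all genes). On the fold scale the interval runs from 0.754 to 1.14 of the control level, so that changes within it cannot be told from none. The controls in this test also entered the comparison by which *Ubb* was chosen. A call needed an adjusted p under 0.05 as well as more than a 2-fold change, which took 0.0969% of all genes as higher and 0% as lower in this knockout. The count of 0 lower genes stands beside 574 genes that were lower at an unadjusted p under 0.05, and DESeq2 called 11 and limma-voom 0 genes lower. Both members were among the genes not called. No member lay below every control in the *Mphosph8* knockout libraries, where 2.26% of all genes did.

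In the *Morc2a* knockout libraries, the contrast by which it was chosen, *Ubb* was at 0.496 of the control level (log2 fold change -1.01, SE 0.17), close to the limit of a 2-fold change. Against the 2 controls of the *Morc2a*-floxed line alone the log2 fold change was -1.08 (SE 0.19). Its rank by CPM per kb went from 133 in controls to 476. In this comparison, 0.0377% of all genes were called higher and 0.0215% lower, a background from which nothing is read for a gene chosen on it. Both of its libraries lay below every control, as they did for 7.8% of all genes. Leaving out each library in turn gave log2 fold changes of -1.08 to -0.91, which lie on both sides of a 2-fold change.

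*Rps27a* varied between libraries of every group. It stood at 27.2, 17.9 and 18.6 CPM in controls 1 to 3 and at 27.5 and 28.1 CPM in controls 4 and 5. The *Mphosph8* knockout libraries held 28.8, 19.5 and 23.1 CPM, and the 2 *Morc2a* knockout libraries held 12.1 and 28.0 CPM. The *Mphosph8* knockout libraries overlapped the controls, and of the *Morc2a* knockout libraries replicate 1 was the lowest of all 10 while replicate 2 was within the control range. Means were 23.9 ± 5.14 CPM in controls, 23.8 ± 4.67 CPM in the *Mphosph8* knockout and 20.1 ± 11.2 CPM in the *Morc2a* knockout, and no neighbours in this order differed beyond their spread.

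After *Mphosph8* loss the log2 fold change of *Rps27a* was -0.0015 (SE 0.27, 95% interval -0.58 to 0.58, adjusted p = 0.999, edgeR), an interval of 0.669 to 1.49 of the control level. In the *Morc2a* knockout it was -0.25 (SE 0.32), as a description. The 2 libraries differed in sign, since without replicate 1 it was 0.24 and without replicate 2 it was -0.98. Replicate 2 held 2.31 times the *Rps27a* level of replicate 1, against 0.904 times for *Ubb*. Genes of the 40S subunit went mostly the other way between these libraries. Of the 31 other 40S genes 7 were higher in replicate 2 (median log2 difference -0.40), with *Rps6* the highest at 0.58, and *Rps27a* lay beyond all of them at 1.21. Of the 45 genes of the 60S subunit 18 were higher in replicate 2 (median -0.22), and *Rpl36a*, at 1.31, lay beyond *Rps27a*. The pseudogenes and other genes that share its windows had 2 counts in replicate 1 and 13 in replicate 2.

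**Figure D2:**
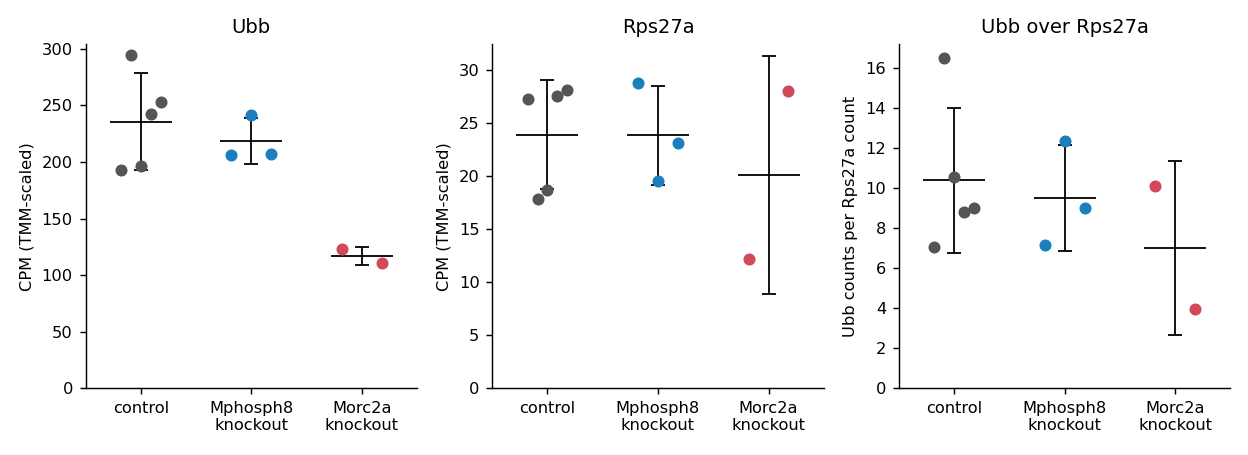
CPM of *Ubb* (left) and *Rps27a* (middle) and *Ubb* counts per *Rps27a* count (right) in each library, by group. Points are libraries (5 control, 3 *Mphosph8* knockout, 2 *Morc2a* knockout), and bars are means ± SD. The 2 *Morc2a* knockout libraries lie below all others for *Ubb* at 111 and 123 CPM and far apart for *Rps27a* at 12.1 and 28.0 CPM.

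The ratio of *Ubb* to *Rps27a* counts does not depend on the scaling of a library. It was 7.08 to 16.5 in controls (median 9.02), and 7.17, 12.4 and 8.99 in *Mphosph8* knockout libraries. The log2 difference of -0.10 for *Mphosph8* loss was within the spread (p = 0.804, two-sided exact permutation test, n = 5 and 3). In *Morc2a* knockout libraries the ratio was 10.1 and 3.97, the first within the control range and the second below it. Over the 10 libraries, log2 CPM of both genes had a Pearson r of 0.19 and a Spearman rho of 0.03, a description over libraries that share groups and depth.

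The controls of both floxed lines were compared, since a difference between them would enter each knockout's value. *Ubb* was at 228 ± 58.1 CPM (SD, n = 3) in *Mphosph8*fl/fl and 248 ± 7.83 CPM (n = 2) in *Morc2a*fl/fl controls (log2 difference 0.12, SE 0.17, adjusted p = 0.898, edgeR). *Rps27a* was at 21.2 ± 5.19 CPM (n = 3) in *Mphosph8*fl/fl and 27.8 ± 0.400 CPM (n = 2) in *Morc2a*fl/fl controls (log2 difference 0.39, SE 0.33, adjusted p = 0.786, edgeR). Neither was called. Of all genes, 0.0538% were called higher and 0.0754% lower in the *Morc2a*fl/fl controls.

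The genes whose log2 CPM followed *Ubb* most closely over the 10 libraries, among 10835 genes with a mean of at least 10 CPM, were *Dad1* (Pearson r 0.987), *Mdh1* (0.978), *Snx17* (0.973), *Akr1a1* (0.965) and *Acot7* (0.955). *Dad1* encodes a subunit of the oligosaccharyltransferase, *Mdh1* the cytosolic malate dehydrogenase, *Snx17* a sorting nexin of endosomes, *Akr1a1* an aldehyde reductase and *Acot7* an acyl-CoA thioesterase abundant in neurons. *Dad1* was at 135 to 199 CPM in controls and 105 and 90.3 CPM in the *Morc2a* knockout. *Mdh1* was at 548 to 751 CPM in controls and 393 and 322 CPM in the *Morc2a* knockout. As they were picked for likeness to *Ubb*, their low *Morc2a* knockout levels follow from the choice. In the *Mphosph8* knockout their log2 fold changes lay between -0.15 (*Mdh1*) and -0.01 (*Dad1*, *Acot7*), none with an adjusted p under 0.981.

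The 5 genes nearest to *Rps27a* were others, *Osbpl9* (r 0.948), *Rab8a* (0.930), *Ahsa2* (0.896), *Tesk2* (0.895) and *Rassf4* (0.891). None of them is a ribosomal protein gene. *Osbpl9* encodes a lipid transfer protein and *Rab8a* a small GTPase of vesicle transport. *Rab8a* was at 18.2 to 37.4 CPM in controls and, like *Rps27a*, far apart in the *Morc2a* knockout libraries at 15.5 and 33.2 CPM. *Tesk2*, a protein kinase gene, was at 0.852 and 18.0 CPM there against 4.78 to 23.8 CPM in controls. As these genes were picked for likeness to *Rps27a*, their gaps between the *Morc2a* knockout libraries follow from the choice.

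**Figure D3:**
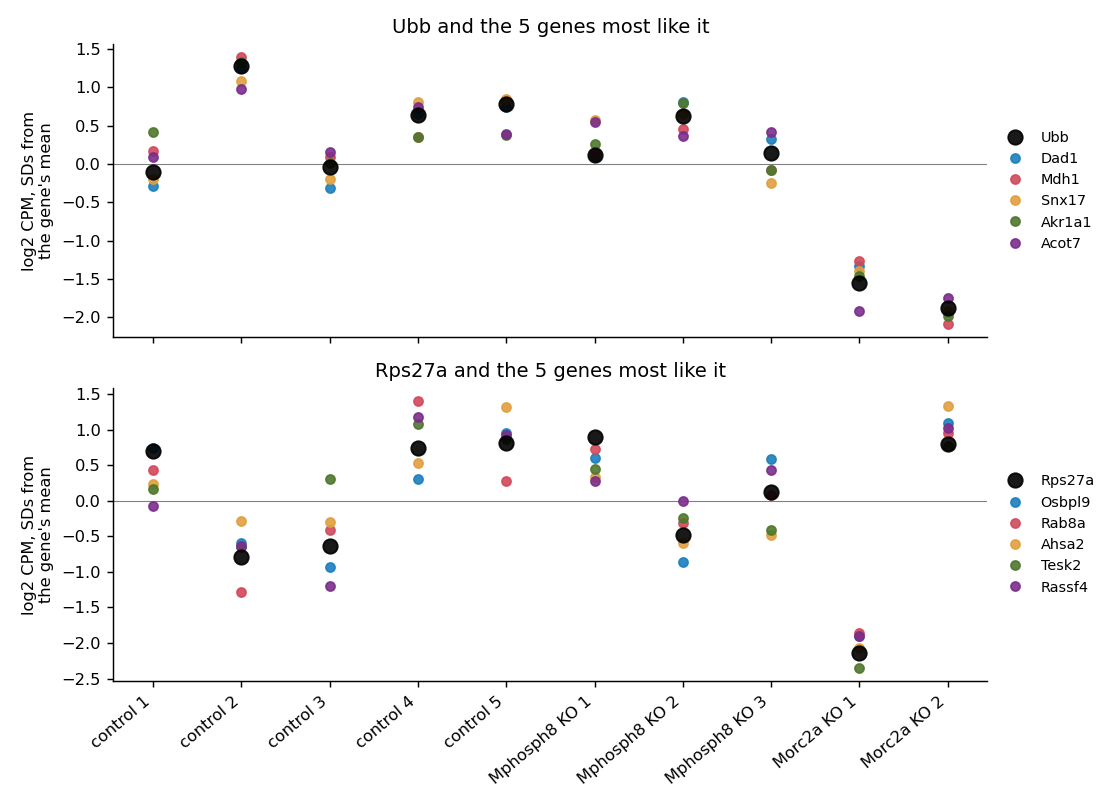
Level of *Ubb* (upper, black) and *Rps27a* (lower, black) and of the 5 genes most like each (colours) in the 10 libraries, as log2 CPM in SDs from the gene's own mean over the libraries. The *Ubb* group is lowest in both *Morc2a* knockout libraries, and the *Rps27a* group is lowest in *Morc2a* knockout 1 and above its mean in *Morc2a* knockout 2.

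The other genes of the ubiquitin system were read from 6 lists. Of 149 listed genes, 146 were tested, and 0 of them were called by edgeR, by DESeq2 or by limma-voom in the comparisons of both knockouts. At an unadjusted p under 0.05 there were 5 of the 146 genes in the *Mphosph8* knockout, beside 5.67% of all genes, and 15 in the *Morc2a* knockout, beside 10.7% of all genes. The median log2 fold change was -0.02 in the *Mphosph8* knockout and -0.04 in the *Morc2a* knockout, beside -0.01 over all genes in each. In the *Morc2a* knockout it ran from -1.47 for *Psmb7*, a proteasome gene, to 0.69 for *Usp14*, a deubiquitinase of the proteasome, neither of which passed the test (adjusted p = 0.272 and 0.172, edgeR).

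Of the E1 enzymes, 9 of 9 were tested and the median was 0.01 in the *Mphosph8* knockout and 0.09 in the *Morc2a* knockout. *Uba1*, which charges ubiquitin itself, was at 273 ± 22.8 CPM in controls (SD, n = 5), 278 ± 28.4 CPM in the *Mphosph8* knockout (n = 3) and 257 ± 2.34 CPM in the *Morc2a* knockout (n = 2). Of the E2 enzymes, 30 of 32 were tested, with medians of 0.06 and 0.03. *Ube2b*, the most abundant of them, was at 415 ± 36.6 CPM in controls and 498 ± 83.2 CPM in the *Morc2a* knockout (log2 fold change 0.26, adjusted p = 0.514, edgeR). The E3 ligases of neurons had medians of -0.06 and -0.04 over 30 genes, and *Mycbp2*, a ligase of axons and synapses, was at 1178 ± 206 CPM in controls and 1133 ± 96.1 CPM in the *Morc2a* knockout.

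The deubiquitinases had medians of -0.07 and 0.04 over 30 genes. Those known to cut ubiquitin precursors or chains did not pass the test in either knockout. In the *Morc2a* knockout the log2 fold change was 0.08 for *Uchl3*, -0.28 for *Usp5*, 0.17 for *Usp7*, -0.03 for *Usp9x* and 0.64 for *Otulin*, with adjusted p between 0.406 and 0.978 (edgeR). In the *Mphosph8* knockout the values of these genes lay between -0.17 (*Usp5*) and 0.10 (*Otulin*).

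The ubiquitin-like modifiers and the proteasome lay lower in the *Morc2a* knockout than in the *Mphosph8* knockout by their medians, without a call. The modifiers had a median of 0.08 in the *Mphosph8* knockout and -0.25 in the *Morc2a* knockout over 15 of 16 genes, and 14 of these were negative in the *Morc2a* knockout. *Gabarapl1*, an autophagy modifier, was at 271 ± 39.7 CPM in controls and at 226 and 171 CPM in the *Morc2a* knockout (adjusted p = 0.375, edgeR). The 32 proteasome genes had medians of -0.05 and -0.21, and 10 of them (31.3%) lay below every control in the *Morc2a* knockout, beside 7.8% of all genes. Over the 6 lists of the ubiquitin system, 18 of 146 tested genes did so. No E1 or E2 gene lay there, and 2 of 30 E3, 4 of 30 deubiquitinase and 2 of 15 modifier genes did. Above every control lay 3 E2, 4 E3, 6 deubiquitinase and 2 proteasome genes. No share over all genes was at hand for this direction, so nothing is read from these counts. Summed, the proteasome genes stood at 3457 to 4055 CPM in controls and at 3302 and 3379 CPM in the *Morc2a* knockout. Their most abundant members, *Psmc4*, *Psma3* and *Psma7*, had log2 fold changes of 0.0029, 0.10 and -0.25 there.

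Genes of the ribosome, the partner of the *Rps27a* product, had medians near those of all genes. The 31 other 40S genes had a median of -0.03 in the *Mphosph8* knockout and -0.09 in the *Morc2a* knockout, and the 45 genes of the 60S subunit -0.05 and -0.12, with 0 called in either by edgeR, DESeq2 or limma-voom. At an unadjusted p under 0.05 there were 2 genes of the 40S and 6 of the 60S subunit in the *Morc2a* knockout, beside 10.7% of all genes, and 0 of both in the *Mphosph8* knockout, beside 5.67%. Of the abundant 40S genes, *Rps3* was at 242 ± 48.2 CPM in controls and at 170 and 128 CPM in the *Morc2a* knockout (log2 fold change -0.71, adjusted p = 0.156, edgeR), and *Rps24* at 164 ± 15.5 CPM and at 173 and 184 CPM (0.12). For *Rps3* the adjusted p was 0.00716 by DESeq2 and ran from 0.00659 to 0.591 over all alternatives, short of a 2-fold change in each.

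**Figure D4:**
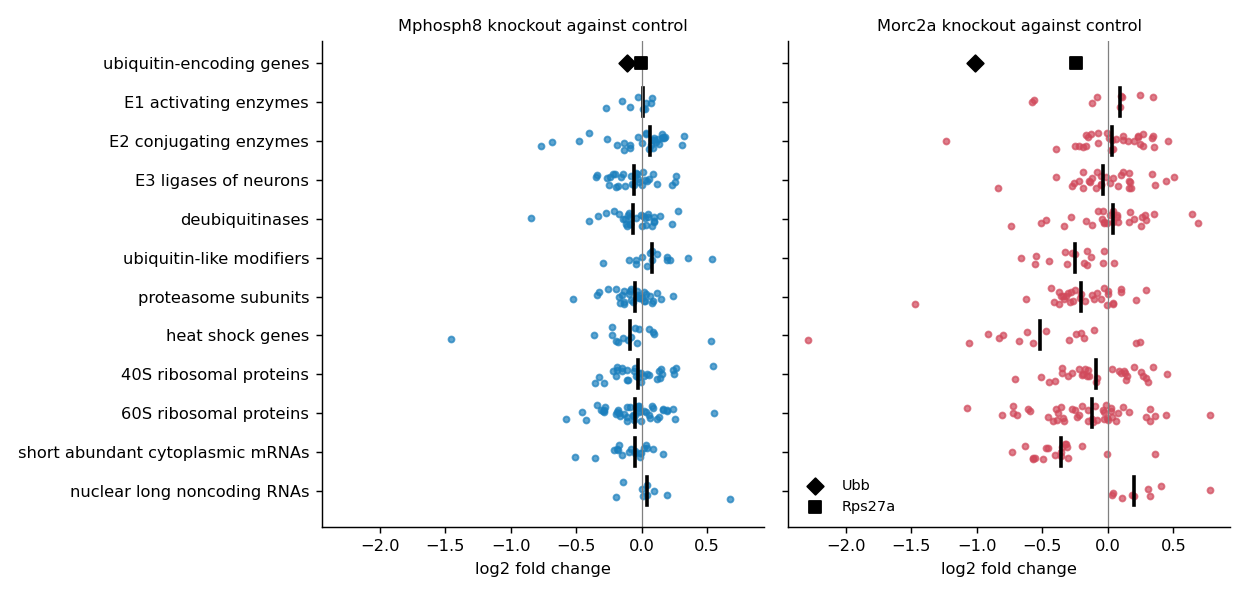
Log2 fold change of each gene (points) of 11 lists and of *Ubb* (diamond) and *Rps27a* (square) in the *Mphosph8* (left) and *Morc2a* (right) knockout against control, from the edgeR fit. Vertical bars are medians. The medians lie near 0 on the left, and on the right the heat shock genes are lowest at -0.52. That median reached -0.19 in an alternative run, where the short abundant cytoplasmic mRNAs stayed between -0.40 and -0.36.

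Other groups of genes were also at low levels in the *Morc2a* knockout libraries, and their part in its low level was not tested. The heat shock genes, among which *Ubb* is often counted, had a median of -0.52 over 16 of 17 genes, against -0.09 in the *Mphosph8* knockout, and 6 of 16 lay below every control in the *Morc2a* knockout, beside 7.8% of all genes. With median-of-ratios size factors or controls of the same line, this *Morc2a* knockout median ran from -0.52 to -0.19. The list summed to 2091 ± 163 CPM in *Mphosph8*fl/fl controls, 1795 ± 12.8 CPM in *Morc2a*fl/fl controls and 1414 ± 76.3 CPM in the *Morc2a* knockout. *Hsp90ab1*, a constitutive chaperone, was at 714 to 959 CPM in controls and at 536 and 397 CPM in the *Morc2a* knockout (log2 fold change -0.83, adjusted p = 0.0294, edgeR). It was short of a 2-fold change and so was not called, and its adjusted p ran from 2.41e-06 to 0.279 over the alternatives. Of this list edgeR and limma-voom called 0 genes, with 6 at an unadjusted p under 0.05 by edgeR beside 10.7% of all genes, and DESeq2 called 1 gene lower, *Cryab*, a small heat shock protein of glia and muscle. *Hspa8* was at 157 CPM in controls on average and at 101 and 79.1 CPM in the *Morc2a* knockout (adjusted p = 0.123, edgeR).

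The short abundant mRNAs of the cytoplasm, such as those of glycolytic enzymes, had a median of -0.36 in the *Morc2a* knockout and -0.05 in the *Mphosph8* knockout over 19 of 20 genes. Of these 19, 11 (57.9%) lay below every control in the *Morc2a* knockout, beside 7.8% of all genes. In that comparison 0 were called by edgeR, DESeq2 or limma-voom, with 12 at an unadjusted p under 0.05, beside 10.7% of all genes. Summed over all 20 listed genes, they stood at 7407 to 9895 CPM in controls, 7548 to 7986 CPM in the *Mphosph8* knockout, and 7028 and 5241 CPM in the *Morc2a* knockout. The nuclear long noncoding RNAs had a positive median of 0.20 over 9 genes in the *Morc2a* knockout, and summed to 20128 to 26270 CPM in controls and 24184 and 28805 CPM in the *Morc2a* knockout.

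The level of *Ubb* was also set against the short mRNAs of the same library, a measure chosen after values were seen. It stood at 24.4 to 31.9 CPM per 1000 CPM of that list in controls, 26.0 to 30.3 in the *Mphosph8* knockout, and 17.5 and 21.2 in the *Morc2a* knockout, where both libraries lay below every other. Per 1000 CPM of the heat shock genes it stood at 95.9 to 142 in controls and at 83.6 and 81.6 in the *Morc2a* knockout. As *Ubb* was chosen for its low level in these libraries, the low values follow at least in part from the choice. They carry no test.

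**Figure D5:**
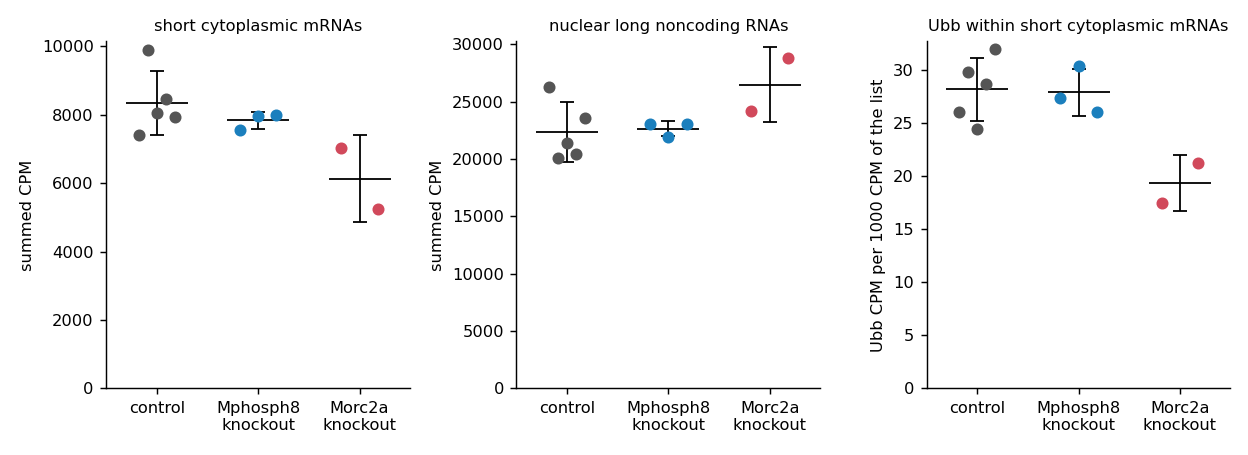
Summed CPM of the short cytoplasmic mRNAs (left) and of the nuclear long noncoding RNAs (middle), and *Ubb* CPM per 1000 CPM of the short mRNAs (right), in each library (points) with mean ± SD (bars). In the 2 *Morc2a* knockout libraries the short mRNAs sum to 7028 and 5241 CPM, below every control, and *Ubb* per 1000 CPM of them is also below every control at 17.5 and 21.2. *Ubb* was chosen for its low level in these 2 libraries.

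Cell type markers were read for the same libraries. The 9 markers of neurons summed to 4948 to 6023 CPM in controls, 5178 to 5400 CPM in the *Mphosph8* knockout, and 4593 and 3959 CPM in the *Morc2a* knockout, with 4 of 9 below every control there beside 7.8% of all genes. These were *Snap25*, *Tubb3*, *Slc17a6* and *Gad1*, while *Map2* and *Rbfox3* had positive log2 fold changes of 0.33 and 0.19. The 6 markers of oligodendrocytes summed to 739 to 964 CPM in controls, 711 to 967 CPM in the *Mphosph8* knockout, and 545 and 672 CPM in the *Morc2a* knockout, with 2 of 6, *Mbp* and *Cnp*, below every control beside 7.8% of all genes. The 6 astrocyte markers summed to 110 to 152 CPM in controls and 117 and 122 CPM in the *Morc2a* knockout. The 6 listed microglia markers, of which 5 were tested, summed to 28.2 to 51.6 CPM in controls and 21.9 and 32.9 CPM in the *Morc2a* knockout. The 5 listed endothelial markers, of which 3 were tested, summed to at most 3.83 CPM in a library, with *Cldn5* at 0 in both *Morc2a* knockout libraries. Of the pituitary markers, *Gh* was called higher in the *Mphosph8* knockout (adjusted p = 0.00494, edgeR; 0.780 by limma-voom, and no adjusted p from DESeq2), where the list summed to 15.2, 16.7 and 302 CPM against 4.03 to 23.5 CPM in controls. Immediate early genes summed to 475 to 1388 CPM in controls, 447 to 797 CPM in *Mphosph8* and 621 and 709 CPM in *Morc2a* knockout libraries. The part of these shifts in the level of *Ubb* was not tested.

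Genes around the members were read for comparison. Within 250000 bases of *Ubb*, 14 other genes were tested, with a median log2 fold change of 0.28 in the *Morc2a* knockout and 0.02 in the *Mphosph8* knockout. The lowest in the *Morc2a* knockout was *Mmgt2* at -1.31, named after its value was seen. Within the same distance of *Rps27a*, 6 other genes were tested, with medians of -0.01 in the *Morc2a* knockout and -0.02 in the *Mphosph8* knockout.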

How the data were processed

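RNA of NeuN+ nuclei was poly(A)-enriched and sequenced as single 50-base reads by the authors, who trimmed reads with Trim Galore 0.5.0, removed abundant sequences with Bowtie2 2.3.4.1, aligned to GRCm38 with STAR and obtained gene counts by featureCounts (Subread 1.6.2) (submitters' processing notes and methods). The deposited values are raw counts; strand and multiple-match settings are not given in the sources used here. Members and lists were chosen with earlier results of these data known. Gene positions and transcripts came from GENCODE for GRCm38 and were read with Biopython 1.88; 123 identifiers had no symbol.

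The test was edgeR 4.0.16 in R 4.3.3: filterByExpr on 3 groups, TMM, 1 quasi-likelihood fit of 10 libraries, and Benjamini-Hochberg adjustment over 18573 genes. Control lines were compared in a fit of 4 groups. Intervals are 95%. DESeq2 1.42.0, limma-voom (limma 3.58.1), other scalings, filters, control sets, left-out libraries and a replicate block were alternatives. The fits were tested on simulated data. Replicates of a group differed by more than counting error (chi-square per degree of freedom 8.17 to 31.3 over 14 pairs), so depth alone does not set the precision over the pooled genes. This pooled value does not speak for single genes with few reads. Named genes were the members, their named pseudogenes, the targeted genes, the 3 most abundant of each list, list members called, deubiquitinases of ubiquitin precursors, and the 5 genes most like each member. Others, and the *Ubb* level per list, were chosen after values were seen.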

Additional observations from a re-analysis of the deposited data

How the results depend on the processing

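*Ubb* kept its direction in every alternative run. In the *Morc2a* knockout its log2 fold change was -1.08 to -0.996 over other scalings, filters, tools and control sets. In the *Mphosph8* knockout it was -0.11 to -0.05 over them and -0.18 to -0.011 without single libraries, nearest to 0 without control replicate 2, and it was not called in any.

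*Rps27a* in the *Mphosph8* knockout, at -0.0015, lay too near 0 to have a direction and was called in none. It was 0.00498 with median-of-ratios size factors, 0.013 with plain library sizes, 0.00325 with all genes with a count, 0.010 with at least 10 counts in every library, 0.00476 with DESeq2, 0.030 with limma-voom, 0.17 with controls of the same line, 0.00463 with only the 2 groups and 0.17 with the replicate block. Without single libraries it was -0.16 to 0.13, and in the *Morc2a* knockout -0.98 to 0.24. The log2 ratio of *Ubb* to *Rps27a* in the *Mphosph8* knockout was -0.31 to 0.084 without single libraries.

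Counts of called genes over the whole table moved most. For the *Mphosph8* knockout 18 became 87 with all genes with a count, 43 with DESeq2 and 10 with controls of the same line, and 6 to 21 without single libraries. For the *Morc2a* knockout 11 became 98 with all genes with a count, 27 with DESeq2, 17 with plain library sizes, 24 with at least 10 counts in every library and 6 with only the 2 groups, and 3 to 26 without single libraries. Between control lines 24 became 154 with all genes with a count and 96 with DESeq2, and 11 to 44 without single libraries. The cause was not tested.

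With the replicate block, which takes the replicate number as a term, 46 genes were called in the *Morc2a* and 12 in the *Mphosph8* knockout, and *Ubb* stood at -0.05 in the latter. The residuals show no pairing of the libraries by number. Those of same-numbered libraries correlated at -0.0275 to 0.0428 over 7 pairs, and those of the 24 others at -0.0552 to 0.0406. The *Morc2a* knockout libraries share their numbers with controls of the *Mphosph8*-floxed line. Pairing by litter was not tested. Counts per library were 114 to 278 for *Rps27a* and 1075 to 3023 for *Ubb*. By transcript length, the ratio of *Ubb* to *Rps27a* per base in controls was 5.48.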
